A study of Mus musculus with 11 samples.

Results

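Interferon signalling and innate sensing were described through 9 genes of 24421 in the count table, in mouse oocytes and 2-cell embryos that lacked maternal Daxx or carried it. Daxx is a histone chaperone and transcriptional co-repressor, and the question was whether its loss was accompanied by an interferon-like response. Of the 9, 7 were taken by name (Ifih1, Mavs, Irf3, Irf7, Irf1, Stat2 and Irf9). Cmpk2 and Ifi35 were picked from their counts in these libraries, so their values are given as a description with no test. The 4 groups were Daxx-knockout MII oocytes (Daxx f/f; Zp3-cre, 3 libraries), control MII oocytes (Daxx f/f, 3 libraries), maternal-knockout 2-cell embryos (Daxx f/f; Zp3-cre; m-z+, 2 libraries) and control 2-cell embryos (Daxx f/f; m+z+, 3 libraries). The floxed allele in all 4 groups was Daxxtm2Led, and the Tg(Zp3-cre)93Knw transgene, whose Zp3 promoter is active in growing oocytes, was carried by the knockout females alone. Loss of Daxx and the transgene therefore cannot be told apart.

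Females were at least 8 weeks old, of mixed C57BL/6J and 129/Sv background, and were superovulated with PMSG and hCG, and oocytes were taken 20 h after hCG. Embryos came from in vitro fertilization with sperm of JF1 males, which brought a normal Daxx allele into every embryo, and were collected at 33 h. A library held 50 pooled oocytes or embryos that came from 2 to 3 females. Oocyte libraries held 32582998 to 39798586 counted reads and embryo libraries 17978192 to 25308468. Levels are CPM, the reads of a gene scaled to 1000000 counted reads of the library. Daxx itself was at 8.14 ± 0.286 CPM in knockout oocytes and 92.6 ± 5.67 CPM in control oocytes (SD, n = 3 each). It was at 24.2 ± 1.88 CPM in maternal-knockout embryos (n = 2) and 39.7 ± 6.14 CPM in control embryos (n = 3). Oocyte markers such as Zp2 and Gdf9 summed to 10842 to 11208 CPM in knockout oocytes and 10834 to 11019 CPM in control oocytes, and to 2170 to 2190 CPM in maternal-knockout embryos and 1650 to 1992 CPM in control embryos. Markers of the 2-cell stage such as Zscan4d and Zfp352 summed to 684.8 to 713 CPM in maternal-knockout embryos and 559.8 to 781 CPM in control embryos, against at most 8.62 CPM in any oocyte library. Reads of Lars2, in whose gene body a ribosomal-RNA-like repeat lies, took 0.482% to 1.85% of embryo libraries, with the highest shares in replicate 2 of both embryo groups, and at most 0.201% of oocyte libraries. Whether the Lars2 share plays a part in any result was not tested. All levels are shares of counted reads, so neither the RNA per oocyte or embryo nor the number in a pool shows in them. A share can rise or fall, also between stages, without a change in the amount of a gene's RNA.

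Cells detect viral nucleic acid with sensors such as the helicase MDA5, encoded by Ifih1, which binds long double-stranded RNA and signals through the mitochondrial adaptor Mavs to the transcription factors Irf3 and Irf7. These switch on interferon genes. Secreted interferon binds its receptors, and the kinases Jak1 and Tyk2 then activate Stat2, which joins Irf9 and binds interferon-stimulated response elements (ISRE) in front of antiviral genes. Irf1, itself a target of interferon gamma through gamma-activated sites (GAS), binds related elements. Transcripts of endogenous retroviruses, which are abundant at the 2-cell stage in mice, can also form double-stranded RNA.

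The sequences before the start sites show which members carry letters of these elements. Searched on both strands in 11 RefSeq promoter windows of the 9 members (build GRCm38.p6, 250 bases before to 50 after the start), the ISRE (GAAA, any 2 bases, then GAAA) was found in the windows of Stat2 and Ifih1, and 3.44% of 32851 windows of the same length hold it. The shorter core AANNGAAA, which overlaps the ISRE, was in the windows of Stat2, Ifih1 and Ifi35, and in 23.9% of all windows. The GAS letters TTCNNNGAA were in those of Irf1 and Ifi35, and in 8.30% of all windows. Irf3, Irf7, Irf9, Mavs and Cmpk2 held none of the 3 motifs in these windows. The windows of Cmpk2 and Irf7 are set on a start that lies inside the gene span given below. For both genes, the 250 bases upstream of that span were thus searched only in part. A match is no evidence of binding. Stat2 and Irf1 are shown over the 250 bases before the start because they carry an ISRE and a GAS match upstream. Cmpk2 is shown because its libraries separated by genotype. Ifih1 and Ifi35 are shown over 30 bases around a match that begins 33 and 8 bases after the start. Capitals mark the ISRE match in Stat2 and Ifih1 and the GAS match in Irf1 and Ifi35, and all are read on the gene's strand.
Stat2, chr10:128270248-128270497, plus strand: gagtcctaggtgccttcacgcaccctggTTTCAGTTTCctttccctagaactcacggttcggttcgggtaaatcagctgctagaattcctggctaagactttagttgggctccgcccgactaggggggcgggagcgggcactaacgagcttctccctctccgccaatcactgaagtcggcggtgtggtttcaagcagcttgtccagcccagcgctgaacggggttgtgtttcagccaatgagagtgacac
Irf1, chr11:53769764-53770013, plus strand: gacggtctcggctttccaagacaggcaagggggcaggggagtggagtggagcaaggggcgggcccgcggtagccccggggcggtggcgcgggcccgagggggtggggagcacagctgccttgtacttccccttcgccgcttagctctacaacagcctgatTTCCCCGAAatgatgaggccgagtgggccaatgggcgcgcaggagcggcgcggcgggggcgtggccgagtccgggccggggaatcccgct
Cmpk2, chr12:26468965-26469214, plus strand: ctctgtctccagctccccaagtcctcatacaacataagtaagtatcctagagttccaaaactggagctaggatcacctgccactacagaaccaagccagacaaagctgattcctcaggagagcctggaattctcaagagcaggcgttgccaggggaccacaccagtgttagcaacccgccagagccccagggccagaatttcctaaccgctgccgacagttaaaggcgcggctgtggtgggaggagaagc
Ifih1, chr2:62646206-62646235, minus strand: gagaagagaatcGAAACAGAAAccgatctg
Ifi35, chr11:101448408-101448437, plus strand: cagaagcagaaTTCACAGAAatgaaagtgg

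The 9 genes fell into 2 patterns by stage. In oocytes Mavs, Irf3, Irf1 and Stat2 overlapped between genotypes. Cmpk2, picked from its counts, separated there, as did 15.7% of all genes tested in oocytes. The other 4 had too few oocyte reads for a difference to show. Mavs, Irf3, Irf1, Stat2 and Cmpk2 were read in every library. Irf7, Irf9, Ifih1 and Ifi35 had at most 7 reads in any oocyte library, at which depth a count of 0 allows up to 0.0754 to 0.0921 CPM (3 counts). All 4 were read in every embryo library of both genotypes.

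**Figure D1:**
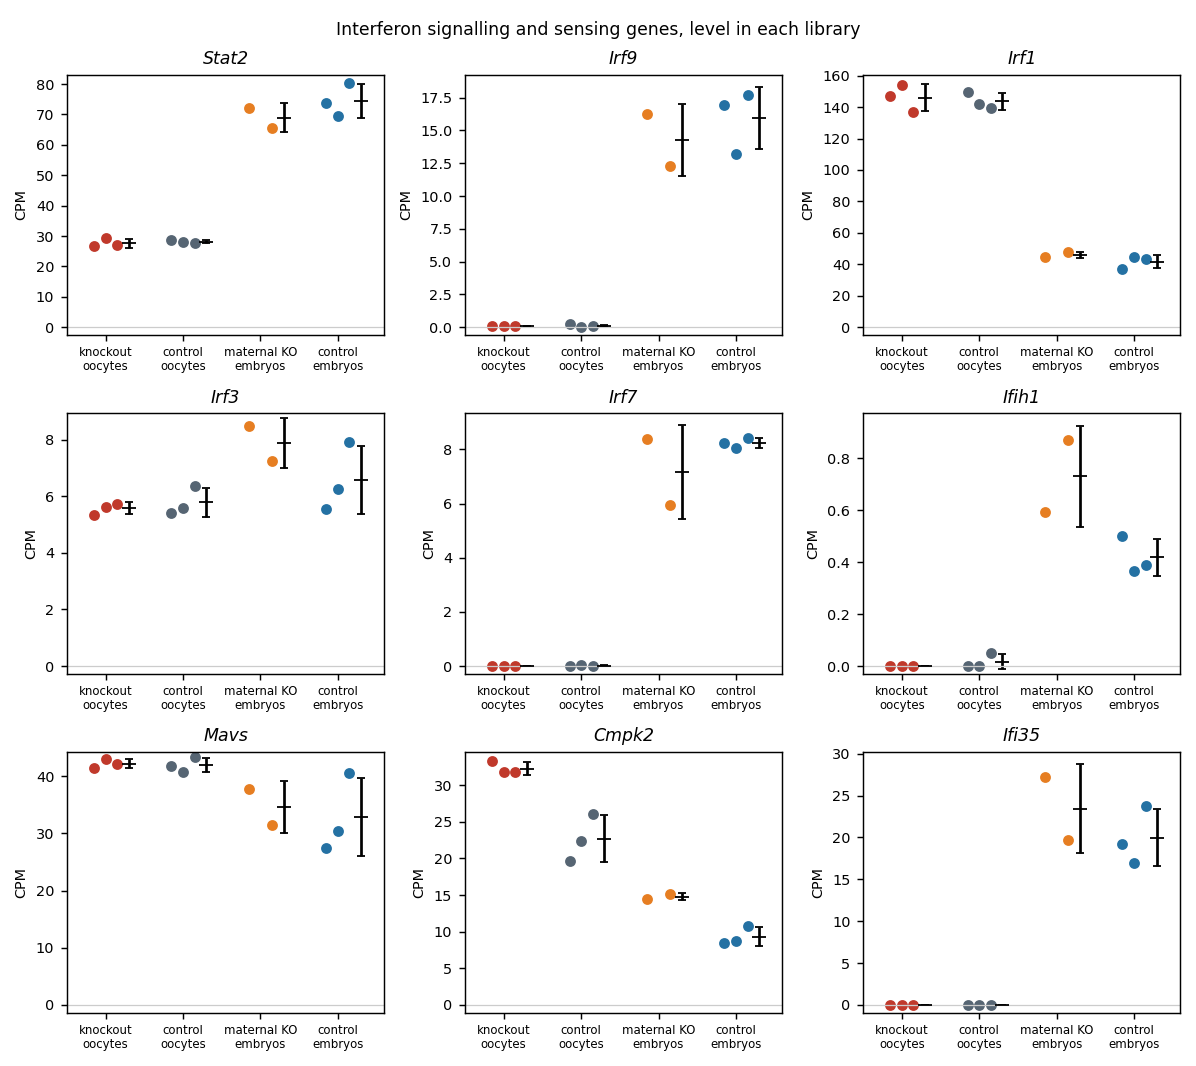
Level of each of the 9 genes in each library, in CPM on a linear axis from 0. Points are libraries, the dash and bar beside them are the mean and SD over libraries. In the Cmpk2 panel the knockout points lie above the control points at both stages, and in the Irf7, Irf9, Ifih1 and Ifi35 panels all oocyte points lie at or near 0.

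Ifih1 (Entrez 71586, chromosome 2, 62595618 to 62646255), the MDA5 sensor, was close to absent from oocytes. It had 0 reads in all 3 knockout oocyte libraries, against 0, 0 and 0.052 CPM (2 reads) in control oocytes. In 2-cell embryos it was at 0.593 and 0.869 CPM in maternal knockouts, against 0.501, 0.366 and 0.391 CPM in controls. Both knockout embryo libraries lay above all 3 control embryo libraries, a separation that 17.8% of all genes tested in embryos showed in one direction or the other. The pooled counts were 33 reads in maternal knockouts and 25 in controls, a ratio of 1.73 with an exact 95% counting interval of 0.995 to 3.03. In edgeR's quasi-likelihood test the log2 change was 0.76 with a 95% interval of -0.43 to 1.95 (adjusted p = 1.00). At this depth a difference was not resolved. Ifih1 shares bases with Gm39839, which is not analysed here.

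Mavs (Entrez 228607, chromosome 2, 131234063 to 131248025), the adaptor through which MDA5 and RIG-I signal, was steady across oocyte genotypes. It was at 41.5, 43.0 and 42.2 CPM in knockout oocytes and 41.8, 40.8 and 43.3 CPM in control oocytes. Maternal-knockout embryos had 37.8 and 31.4 CPM, against 27.5, 30.5 and 40.5 CPM in control embryos. The genotypes overlapped at both stages. The genotype log2 change was -0.01 (95% interval -0.14 to 0.12, adjusted p = 0.98 by edgeR) in oocytes and 0.05 (-0.35 to 0.44, adjusted p = 1.00 by edgeR) in embryos.

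Irf3 (Entrez 54131, chromosome 7, 44997648 to 45002848), the factor that Mavs signalling phosphorylates without new synthesis, was at 5.34, 5.64 and 5.74 CPM in knockout oocytes and 5.40, 5.60 and 6.35 CPM in control oocytes. Maternal-knockout embryos had 8.5 and 7.24 CPM, against 5.56, 6.27 and 7.90 CPM in control embryos. Knockout and control libraries overlapped at each stage. Its genotype log2 change was -0.07 (95% interval -0.34 to 0.19) in oocytes and 0.23 (-0.31 to 0.76) in embryos, with adjusted p of 0.90 and 1.00 by edgeR.

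Irf7 (Entrez 54123, chromosome 7, 141263183 to 141266499), the factor that interferon itself induces and that amplifies interferon alpha production, had no read in the 3 knockout oocyte libraries. Control oocytes had 0, 0.050 and 0 CPM, the middle value being 2 reads. Among embryos, Irf7 was at 8.38 and 5.94 CPM in maternal knockouts and 8.23, 8.05 and 8.42 CPM in controls. Maternal-knockout replicate 3 was the lowest of the 5, and replicate 2 lay within the control range. The log2 change between embryo genotypes was -0.24 (95% interval -0.76 to 0.29, adjusted p = 1.00 by edgeR).

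Irf1 (Entrez 16362, chromosome 11, 53770014 to 53778374), which acts in interferon gamma responses, was at 147, 154 and 137 CPM in knockout oocytes and 149, 142 and 139 CPM in control oocytes. It was at 44.8 and 47.6 CPM in maternal-knockout embryos and 36.8, 44.8 and 43.3 CPM in control embryos. The oocyte groups overlapped throughout, and so did the embryo groups, whose maternal-knockout replicate 2 lay just under control replicate 2. The genotype log2 change was 0.01 (95% interval -0.10 to 0.11, adjusted p = 0.99 by edgeR) in oocytes, the narrowest interval of the members there. In embryos it was 0.12 (-0.24 to 0.47, adjusted p = 1.00 by edgeR).

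Stat2 (Entrez 20847, chromosome 10, 128270498 to 128292853), the partner of Irf9, was at 26.6, 29.4 and 27.0 CPM in knockout oocytes and 28.6, 28.1 and 27.8 CPM in control oocytes. At the 2-cell stage Stat2 was at 72.2 and 65.6 CPM in maternal knockouts and 73.7, 69.4 and 80.4 CPM in controls. Libraries of the 2 genotypes overlapped at both stages. The genotype log2 change was -0.05 (95% interval -0.20 to 0.10, adjusted p = 0.89 by edgeR) in oocytes and -0.15 (-0.46 to 0.17, adjusted p = 1.00 by edgeR) in embryos. Stat2 shares 753 bases with Apof, which averaged 3.91 CPM in maternal-knockout embryos and 4.2 CPM in control embryos, so a small part of its embryo reads cannot be assigned with certainty.

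Irf9 (Entrez 16391, chromosome 14, 55603985 to 55610030), the DNA-binding subunit of the complex with Stat2, had 3 reads in each knockout oocyte library and 7, 0 and 3 reads in the control oocyte libraries. In embryos it was at 16.2 and 12.3 CPM in maternal knockouts and 17.0, 13.2 and 17.7 CPM in controls. Maternal-knockout replicate 3 was the lowest of the 5 embryo libraries, and replicate 2 lay within the control range. The log2 change between embryo genotypes was -0.19 (95% interval -0.65 to 0.26, adjusted p = 1.00 by edgeR).

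No member chosen by name was called with genotype. In oocytes 4 of the 7 had enough reads to be tested and 0 were called at an adjusted p under 0.05, against 0.583% of the 14235 genes tested (83 genes). In embryos all 7 were tested and 0 were called, against 0.0260% of 15414 genes (4 genes). At an unadjusted p under 0.05 the count was also 0 of 4 in oocytes and 0 of 7 in embryos, where 10.3% and 3.19% of all genes tested lay under it, and DESeq2 and limma-voom called 0 as well. The difference between the genotype effects of the 2 stages was called for 0 of the 7, against 0.0118% of 17018 genes, with 0 at an unadjusted p under 0.05. Since few genes were called at all in embryos, the 95% intervals say more than the count. They exclude a doubling for Stat2, Irf1, Irf3, Irf7, Irf9 and Mavs in embryos and for Stat2, Irf1, Irf3 and Mavs in oocytes, since all their upper bounds are at most 0.76 on the log2 scale.

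**Figure D2:**
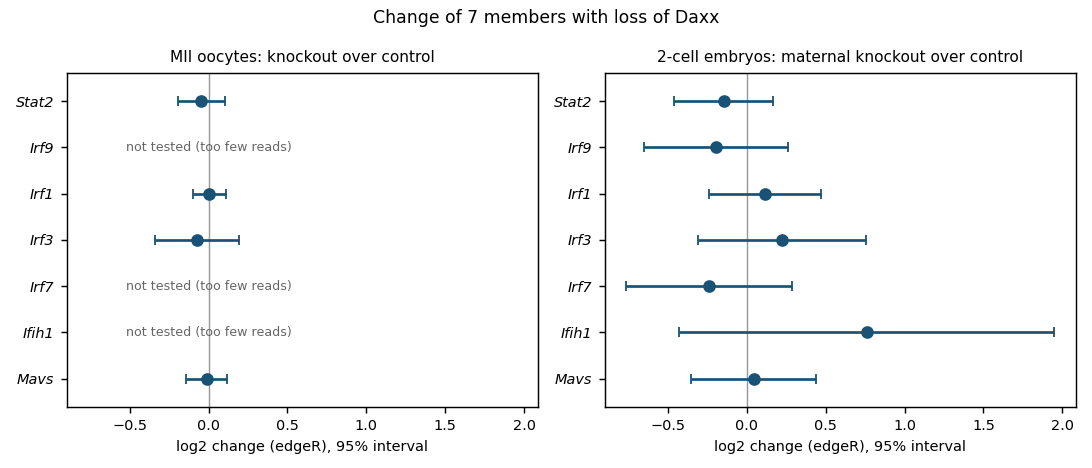
Genotype log2 change (edgeR, knockout over control) of the 7 members chosen by name, with 95% intervals, in oocytes at the left and 2-cell embryos at the right. Every interval crosses 0, and Ifih1 in embryos has the widest, -0.43 to 1.95.

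Cmpk2 (Entrez 22169, chromosome 12, 26469117 to 26479837), a mitochondrial nucleotide kinase that interferon induces in many cells, was at 33.2, 31.8 and 31.7 CPM in knockout oocytes, against 19.7, 22.3 and 26.1 CPM in control oocytes. At the 2-cell stage Cmpk2 was at 14.4 and 15.1 CPM in maternal knockouts, against 8.51, 8.67 and 10.8 CPM in controls. All knockout libraries lay above all control libraries of their stage. The gene was picked for these counts, and 15.7% of the genes tested in oocytes and 17.8% in embryos separated as fully in one direction or the other. The pooled ratio of CPM was 1.41 in oocytes and 1.56 in embryos, with no interval given for that reason. Rsad2 (viperin), its neighbour on chromosome 12 at 26442743 to 26456452 and a textbook interferon target, had 2, 0 and 0 reads in knockout oocytes and 0 in every control oocyte library. It had 11 and 2 reads in maternal-knockout embryos and 0, 0 and 8 in control embryos, so its libraries overlapped there.

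Markers of other cell types were summed in the same libraries. In oocytes the sums of 4 marker lists separated by genotype, those of the 2-cell stage, granulosa and cumulus cells, immune cells and sperm. Single genes separated as fully for 15.7% of all genes tested in oocytes and 17.8% in embryos, in one direction or the other. How often a sum of genes separates was not tested. The summed level of the 10 markers of the 2-cell stage was 5.00 to 8.62 CPM in knockout oocytes and 3.12 to 4.24 CPM in control oocytes, with 0 of 3 tested called by edgeR and 1 at an unadjusted p under 0.05. In embryos the sums of the oocyte markers and the immune cell markers separated. All 10 oocyte markers had a log2 change above 0 between embryo genotypes (median 0.18), with 0 called by edgeR, DESeq2 or limma-voom and 2 at an unadjusted p under 0.05. The summed level of 14 granulosa and cumulus markers was 34.1 to 38.4 CPM in knockout oocytes and 28.3 to 32.0 CPM in control oocytes, and 15.5 to 21.0 CPM in maternal-knockout embryos and 12.1 to 16.4 CPM in control embryos. The granulosa-defining gene Foxl2 had 4 reads in all in knockout oocytes and 0 in control oocytes. The sum of 14 immune cell markers was 7.71 to 8.92 CPM in knockout oocytes and 6.72 to 7.60 CPM in control oocytes, and 19.6 to 20.7 CPM in maternal-knockout embryos and 13.7 to 17.9 CPM in control embryos. Within this list Cd68 averaged 2.37 CPM in knockout oocytes and 1.43 CPM in control oocytes, and 3.17 CPM in maternal-knockout embryos and 1.98 CPM in control embryos, and Laptm5 averaged 4.96 CPM in knockout oocytes and 4.70 CPM in control oocytes, and 5.92 CPM in maternal-knockout embryos and 3.82 CPM in control embryos. The defining leukocyte gene Ptprc averaged 0.105 CPM in knockout oocytes and 0.113 CPM in control oocytes, and Tyrobp had 0 reads in both. The sum of 9 sperm and spermatid markers was 6.33 to 7.75 CPM in knockout oocytes and 2.73 to 3.64 CPM in control oocytes, and the groups overlapped in embryos (6.40 to 8.31 CPM in maternal knockouts, 2.61 to 8.03 CPM in controls). Over all genes tested, edgeR called 0.583% in oocytes and 0.0260% in embryos, with 10.3% and 3.19% at an unadjusted p under 0.05. In oocytes edgeR called 0 of 6 granulosa, 0 of 3 immune and 1 of 3 sperm markers tested, with 2, 1 and 1 at an unadjusted p under 0.05. DESeq2 called 1, 0 and 1 of them, and limma-voom 0, 0 and 1. In embryos none of these 3 lists had a call by edgeR, DESeq2 or limma-voom, with 1, 0 and 1 at an unadjusted p under 0.05. Their part in the level of Cmpk2 was not tested.

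Ifi35 (Entrez 70110, chromosome 11, 101448412 to 101458701), an interferon-induced protein, had 0 reads in all 6 oocyte libraries. In embryos it was at 27.2 and 19.7 CPM in maternal knockouts and 19.2, 17.0 and 23.7 CPM in controls. The embryo groups overlapped, and maternal-knockout replicate 2 was the highest of the 5 libraries. The pooled ratio between embryo genotypes was 1.18, with no interval given since the gene was picked from its counts.

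The larger differences were between stages. From the MII oocyte to the 2-cell embryo the maternal RNA is largely degraded and the embryo's genome becomes active, and most genes moved. In knockouts 42.5% of the 16592 genes tested were called higher and 37.7% lower, and in controls 43.1% and 40.0% of 15577. Of the 7 members chosen by name, 5 were called higher and 2 lower in knockouts, and 4 higher and 2 lower in controls by edgeR. These shares are read against 80.2% of all genes called in either direction in knockouts and 83.1% in controls. Irf7, Irf9 and Ifih1 passed the filter on low counts only through their embryo reads, so they had to differ. The stage comparison in each genotype shares its libraries with both genotype comparisons.

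Stat2 rose in embryos of both genotypes, by 1.27 ± 0.09 on the log2 scale in knockouts (adjusted p = 1.1e-06) and by 1.38 ± 0.10 in controls (adjusted p = 9.8e-08, edgeR, SE). Irf1 fell by 1.71 ± 0.09 in knockouts (adjusted p = 1.3e-07 by edgeR) and by 1.81 ± 0.10 in controls (adjusted p = 9.5e-09 by edgeR). Every embryo library lay on the far side of every oocyte library for both genes. Mavs fell by 0.34 ± 0.10 in knockouts (adjusted p = 0.012 by edgeR) and by 0.38 ± 0.14 in controls (adjusted p = 0.021 by edgeR). The Mavs call in controls was lost with DESeq2 (log2 change -0.28), with other size factors (-0.28), and without control oocyte replicate 3 (-0.35), control embryo replicate 1 (-0.29) or control embryo replicate 2 (-0.35). Irf3 rose by 0.45 ± 0.17 in knockouts (adjusted p = 0.032 by edgeR), a call that 6 of 12 alternatives kept and that was lost without any one of the 3 knockout oocyte libraries (0.41, 0.44 and 0.48 on the log2 scale) or without maternal-knockout embryo replicate 2 (0.35). In controls its log2 change was 0.16 ± 0.19 (adjusted p = 0.44 by edgeR). The difference of these stage changes between genotypes is the same quantity as the difference of genotype effects between stages, which was called for 0 of the 7.

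The members near 0 in oocytes are given as ratios of pooled CPM with exact 95% counting intervals, or as lower bounds from 3 counts over the oocyte group. Irf7 was at least 276-fold higher in knockout embryos than in knockout oocytes, and 457-fold higher in control embryos than in control oocytes (interval 126 to 3782, 496 against 2 reads). Irf9 was 183-fold higher in knockouts (95.6 to 401) and 178-fold higher in controls (96.2 to 372). Both factors were thus read in embryos of each genotype at levels far above those of the oocyte. Ifih1 was at least 27.2-fold higher in knockouts and 23.0-fold higher in controls (5.74 to 201), and Ifi35 at least 902-fold higher in knockouts and at least 747-fold higher in controls. Cmpk2 moved the other way, with embryo levels 0.457 times the oocyte level in knockouts and 0.412 times in controls. Of the immune cell markers, 5 of 7 tested were called higher in knockouts and 4 of 6 in controls by edgeR, against 42.5% and 43.1% of all genes, and 4 and 3 of them passed the filter only through embryo reads. Coro1a, a leukocyte actin regulator, averaged 3.97 CPM in maternal-knockout embryos and 3.82 CPM in control embryos, against 0.027 CPM in knockout oocytes and 0.050 CPM in control oocytes. Of the 14 immune cell markers, 5 averaged at least 1 CPM in maternal-knockout embryos and 5 in control embryos. Cd68 and Laptm5 were at the embryo levels given above. Ptprc had 1 read in maternal knockouts and 0 in controls, and Tyrobp 0 reads in maternal knockouts and 1 in controls.

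Per length, Irf1 was the highest member in oocytes, at 43.5 ± 2.60 CPM per kilobase of gene width (RPKM) in knockouts and 42.7 ± 1.54 RPKM in controls (SD, n = 3 each). Mavs followed at 13.2 ± 0.227 RPKM in knockouts and 13.2 ± 0.403 RPKM in controls. Cmpk2 came next at 10.1 ± 0.267 RPKM in knockouts, above Stat2 (6.28 ± 0.349 RPKM) in every library. In controls Cmpk2 (7.12 ± 1.01 RPKM) and Stat2 (6.40 ± 0.0879 RPKM) overlapped. Irf3 was at 2.55 ± 0.0947 RPKM in knockouts and 2.64 ± 0.229 RPKM in controls, below Stat2 in every library, and the 4 others were under 0.04 RPKM on average.

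In embryos the top 4 were closer. In maternal knockouts the order was Ifi35 (17.2 ± 3.89 RPKM), Stat2 (15.7 ± 1.06), Irf1 (13.7 ± 0.589) and Mavs (10.8 ± 1.42), and only Ifi35 and Stat2 overlapped as neighbours. In controls it was Stat2 (16.9 ± 1.26 RPKM), Ifi35 (14.7 ± 2.52), Irf1 (12.4 ± 1.26) and Mavs (10.3 ± 2.14), each overlapping the next. Irf9 followed at 5.31 ± 1.03 RPKM in maternal knockouts and 5.93 ± 0.890 RPKM in controls. Irf7 was at 3.85 ± 0.927 RPKM in maternal knockouts and 4.43 ± 0.101 RPKM in controls. Ifih1 was last in both groups, at 0.0923 ± 0.0247 RPKM in maternal knockouts and 0.0529 ± 0.00906 RPKM in controls.

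The rest of the pathway was read from 8 lists of 167 genes, all of them in the table. In knockout against control oocytes 91 were tested, and 1 was called higher and 0 lower, against 0.583% of all genes tested called in either direction. Of the 91, 11 had an unadjusted p under 0.05, against 10.3% of all genes tested. In embryos 112 were tested and 0 were called, against 0.0260% of all genes tested. Of the 112, 7 had an unadjusted p under 0.05, against 3.19% of all genes tested. The median log2 change was -0.0089 in oocytes and 0.03 in embryos, against 0.00017 and 0.0021 over all genes tested.

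Interferon ligands were close to absent. None of 21 reached 1 CPM in any library, and the highest was 0.29 CPM. Reads over all 21 came to 23 in knockout oocytes, 43 in control oocytes, 27 in maternal-knockout embryos and 14 in control embryos, from libraries of unequal number and depth. The summed level of the 21 was 0.133 to 0.318 CPM in knockout oocytes and 0.338 to 0.469 CPM in control oocytes. In embryos it was 0.514 to 0.676 CPM in maternal knockouts and 0.174 to 0.278 CPM in controls. The sums thus separated by genotype at both stages, lower in knockout oocytes and higher in maternal-knockout embryos, on these few reads. Of all genes tested, 15.7% in oocytes and 17.8% in embryos separated as fully in one direction or the other. Whether the ligand sums differ by more than counting error was not tested. Ifnb1, the interferon beta gene that Irf3 activates first, had 0 reads in knockout oocytes, 2 in control oocytes and 0 in both embryo groups. Ifng had 0 reads in knockout oocytes, 2 in control oocytes, 13 in maternal-knockout embryos and 7 in control embryos. These genes were chosen after their values were seen, and all 21 were too low to test.

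Of 70 interferon-stimulated genes, 27 stayed under 1 CPM in every library. In oocytes 33 were tested and edgeR called 1, Samd9l, higher in knockouts, against 0.583% of all genes tested called in either direction. DESeq2 called 1, which was Bst2, and limma-voom 0, and DESeq2 gave no adjusted p for Samd9l. At an unadjusted p under 0.05 there were 5 of the 33, against 10.3% of all genes tested. In embryos 44 were tested and 0 were called by edgeR, DESeq2 or limma-voom, against 0.0260% of all genes tested by edgeR. For Samd9l in embryos DESeq2 again gave no adjusted p. There 3 of the 44 were at an unadjusted p under 0.05, against 3.19% of all genes tested. The median log2 change of the tested interferon-stimulated genes was 0.04 in oocytes and 0.08 in embryos. Of the 70, 27 averaged at least 1 CPM in knockout oocytes and 27 in control oocytes, and 35 in maternal-knockout embryos and 38 in control embryos. The following targets were named after their values were seen. Ifitm3, which blocks viral entry, averaged 18.9 CPM in knockout oocytes and 17.8 CPM in control oocytes, and 10.1 CPM in maternal-knockout embryos and 5.93 CPM in control embryos. Isg15, the ubiquitin-like modifier, had 0 reads in oocytes of both genotypes and averaged 0.913 CPM in maternal-knockout embryos and 1.05 CPM in control embryos. Ifit3 had no read in any library. Mx1, the antiviral GTPase, averaged 1.5 CPM in knockout oocytes and 1.71 CPM in control oocytes, and 0.211 CPM in maternal-knockout embryos and 0.192 CPM in control embryos.

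**Figure D3:**
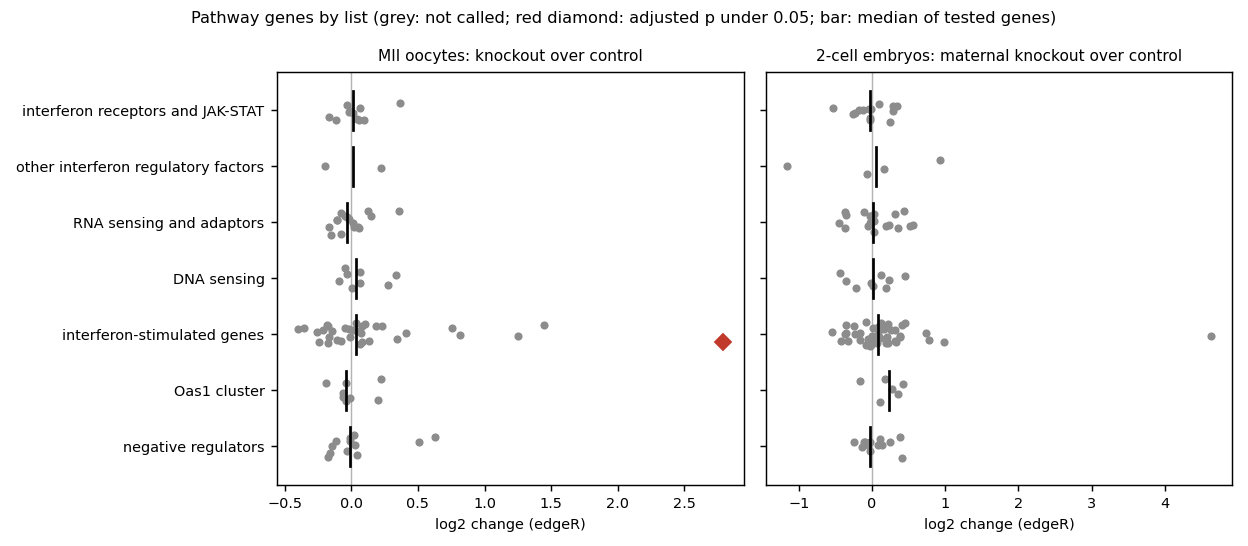
Genotype log2 change (edgeR, knockout over control) of the tested pathway genes, 1 point a gene, by list, in oocytes at the left and 2-cell embryos at the right, on axes of different range. Black bars are list medians, and the 1 red diamond is Samd9l in oocytes. The point far to the right in embryos is also Samd9l.

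Samd9l, an interferon-inducible restriction factor, had 35, 23 and 38 reads in knockout oocytes and 7, 4 and 2 reads in control oocytes. In embryos it had 21 and 24 reads in maternal knockouts and 1, 1 and 0 reads in controls. The genotypes separated fully at both stages, as 15.7% of all genes tested did in oocytes and 17.8% in embryos, at levels of 0.845 CPM on average in knockout oocytes against 0.122 CPM in control oocytes. The log2 change in oocytes was 2.79 (adjusted p = 0.019 by edgeR). It was called by 6 of the 11 alternatives that gave an adjusted p in oocytes and lost its call with limma-voom, with all libraries in 1 fit, and without knockout replicate 1 (2.73), knockout replicate 3 (2.63) or control replicate 2 (2.67). In embryos the pooled ratio was 29.4 (exact 95% counting interval 7.68 to 250), and the adjusted p by edgeR was 0.068. Of 10 alternatives in embryos, 2 called it, the fit without a filter on low counts (adjusted p = 0.000761) and the fit of all libraries (adjusted p = 0.036), and over the 10 the adjusted p by edgeR or limma-voom ranged up to 0.54. The gene was known from earlier results of these data.

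Bst2 (tetherin), which holds budding viruses at the cell surface, did not pass but separated at both stages, as did the 15.7% and 17.8% of all genes given above. It was at 10.1, 10.9 and 8.92 CPM in knockout oocytes and 5.46, 4.75 and 7.21 CPM in control oocytes. In embryos it was at 7.47 and 7.05 CPM in maternal knockouts and 3.06, 4.34 and 4.99 CPM in controls. The log2 change was 0.76 (adjusted p = 0.051 by edgeR) in oocytes and 0.78 (adjusted p = 1.00 by edgeR) in embryos. DESeq2 called it in oocytes, as did edgeR without the filter on low counts or without control replicate 3. It was named for oocytes after its values were seen.

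Among 14 negative regulators, 12 were tested in oocytes and 14 in embryos, and edgeR called 0 in either. At an unadjusted p under 0.05 there were 2 and 0, against 10.3% and 3.19% of all genes tested. DESeq2 called 2 in oocytes, Irf2bp2 and Socs1, and 0 in embryos, and limma-voom called 0. Socs1, which blocks Jak kinases and is induced by their activity, was at 13.9, 14.2 and 10.2 CPM in knockout oocytes and 7.0, 9.32 and 7.94 CPM in control oocytes. Its log2 change was 0.63 (adjusted p = 0.083 by edgeR) in oocytes and 0.24 (adjusted p = 1.00 by edgeR) in embryos. Irf2bp2, a corepressor that binds Irf2, was at 13.5, 11.4 and 11.9 CPM in knockout oocytes and 8.56, 7.99 and 9.01 CPM in control oocytes, with a log2 change of 0.51 (adjusted p = 0.055 by edgeR). Each passed 3 of 13 alternatives, and both separated fully in oocytes, as did 15.7% of all genes tested there. Their part in any change of the pathway was not tested.

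Receptors, kinases and sensors did not pass with genotype. Of 14 receptor and JAK-STAT genes, 11 were tested in oocytes and 14 in embryos, of 23 RNA sensing genes 17 and 21, of 12 DNA sensing genes 8 and 9, and of 5 other interferon regulatory factors 2 and 4. The count called by edgeR was 0 in each, as it was with DESeq2 and limma-voom. An unadjusted p under 0.05 was reached by 3 in oocytes and 4 in embryos, against 10.3% and 3.19% of all genes tested. Genes with the smallest p in their list in oocytes included Jak1 (log2 change -0.11, adjusted p = 0.37 by edgeR), Tlr8 (0.36, adjusted p = 0.29) and Cgas (-0.10, adjusted p = 0.48). In embryos they included Irf4 (-1.16), Tlr8 (0.52), Chuk (-0.36) and Ifnar1 (-0.25), each with an adjusted p of 1.00 by edgeR.

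By stage, pathway genes moved in both directions. Of the 167 genes, 53 were called higher and 41 lower of 118 tested in knockouts, and 52 higher and 42 lower of 111 in controls, read against the 42.5% and 37.7% of all genes in knockouts and 43.1% and 40.0% in controls. The counts of each list by stage are read against the same shares. For interferon-stimulated genes the counts were 23 higher and 13 lower of 49 in knockouts and 22 higher and 12 lower of 44 in controls. Of these, 14 in knockouts and 12 in controls passed the filter on low counts in embryos and not in oocytes, and 13 and 12 of them were among the higher calls, and genes that enter this way had to differ. Among those that passed at both stages, 10 were higher and 11 lower of 30 in knockouts, and 9 higher and 11 lower of 29 in controls. Over all genes that passed at both stages, 36.6% were higher and 43.1% lower in knockouts, and 37.6% and 43.6% in controls. Across the 8 lists, 25 genes in knockouts and 22 in controls passed in embryos and not in oocytes, so the counts by stage of each list include such genes. Irgm1, an immunity-related GTPase, averaged 14.2 CPM in maternal-knockout embryos and 10.6 CPM in control embryos and had 0 reads in every oocyte library. Zc3hav1, which binds CpG-rich viral RNA, rose by 4.42 on the log2 scale in knockouts and by 4.40 in controls, called by edgeR in both. Epsti1 fell by 2.83 in knockouts and by 3.13 in controls.

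Related RNA sensing genes differed in opposite directions between stages. Ddx58, which encodes the sensor RIG-I, fell to 9.59 ± 0.243 CPM in maternal-knockout embryos and 7.95 ± 1.30 CPM in control embryos, against 35.2 ± 4.55 CPM in knockout oocytes and 37.3 ± 4.22 CPM in control oocytes. Its log2 change was -1.92 in knockouts and -2.26 in controls, called by edgeR in both. Dhx58 and Trim25 passed the filter on low counts only through their embryo reads, so they had to differ. Dhx58, which encodes LGP2, a helicase of the same family, was at 5.22 CPM in maternal-knockout embryos and 5.49 CPM in control embryos, against 0.114 CPM in knockout oocytes and 0.142 CPM in control oocytes. Trim25, a ubiquitin ligase that acts with RIG-I, was at 65.3 CPM in maternal-knockout embryos and 82.2 CPM in control embryos, against 0.193 CPM in knockout oocytes and 0.227 CPM in control oocytes. Of 21 RNA sensing genes tested, 10 were called higher and 6 lower in knockouts, and 10 higher and 7 lower in controls by edgeR.

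Among DNA sensing genes the sensor fell in embryos. Its adaptor Sting1 passed the filter on low counts only through its embryo reads, so it had to differ. Cgas, which makes the messenger cGAMP on binding DNA, fell to 30.8 CPM in maternal-knockout embryos and 30.4 CPM in control embryos, against 167 CPM in knockout oocytes and 176 CPM in control oocytes. The cGAMP receptor Sting1 averaged 5.19 CPM in maternal-knockout embryos and 4.67 CPM in control embryos, and had 2 reads in all in knockout oocytes and 1 in control oocytes. The pooled ratio for Sting1 was 304 in knockouts (exact 95% counting interval 83.2 to 2521) and 532 in controls (94.8 to 21098). Of 9 DNA sensing genes tested, 2 were called higher and 5 lower in knockouts, and 3 higher and 5 lower in controls by edgeR. Sting1 was among the higher calls of each genotype.

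Receptors and kinases split as well, with 6 called higher and 5 lower of 13 tested in each genotype. Ifnar1, a chain of the type I receptor, rose by 1.33 on the log2 scale in knockouts and by 1.65 in controls, and Tyk2 rose by 1.05 in knockouts and by 1.09 in controls. Il10rb, a chain of the type III receptor, fell by 3.10 in knockouts and by 3.02 in controls. Irf5 rose to 26.3 CPM in maternal-knockout embryos and 26.8 CPM in control embryos, against 0.467 CPM in knockout oocytes and 0.523 CPM in control oocytes. Negative regulators were called higher in 9 and lower in 4 of 14 in knockouts, and higher in 9 and lower in 5 of 14 in controls, Socs3 among the rises (4.05 in knockouts, 4.16 in controls, log2).

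The Oas1 cluster, genes related to the double-stranded RNA sensor that activates RNase L, was high in oocytes. Whether these copies have that activity was not tested. With genotype edgeR called 0 of 8 genes tested in oocytes and 0 of 6 in embryos. At an unadjusted p under 0.05 there were 1 and 0, against 10.3% and 3.19% of all genes tested. DESeq2 and limma-voom called 0 as well. Oas1c averaged 137 CPM in maternal-knockout embryos and 111 CPM in control embryos, and 1054 CPM in knockout oocytes and 1068 CPM in control oocytes. By stage 7 of 8 tested were called lower in knockouts and 7 of 7 in controls, against 37.7% and 40.0% of all genes tested. The Oas1 genes are related copies. The sources used here do not give how reads shared between them were counted, so single values are uncertain.

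**Figure D4:**
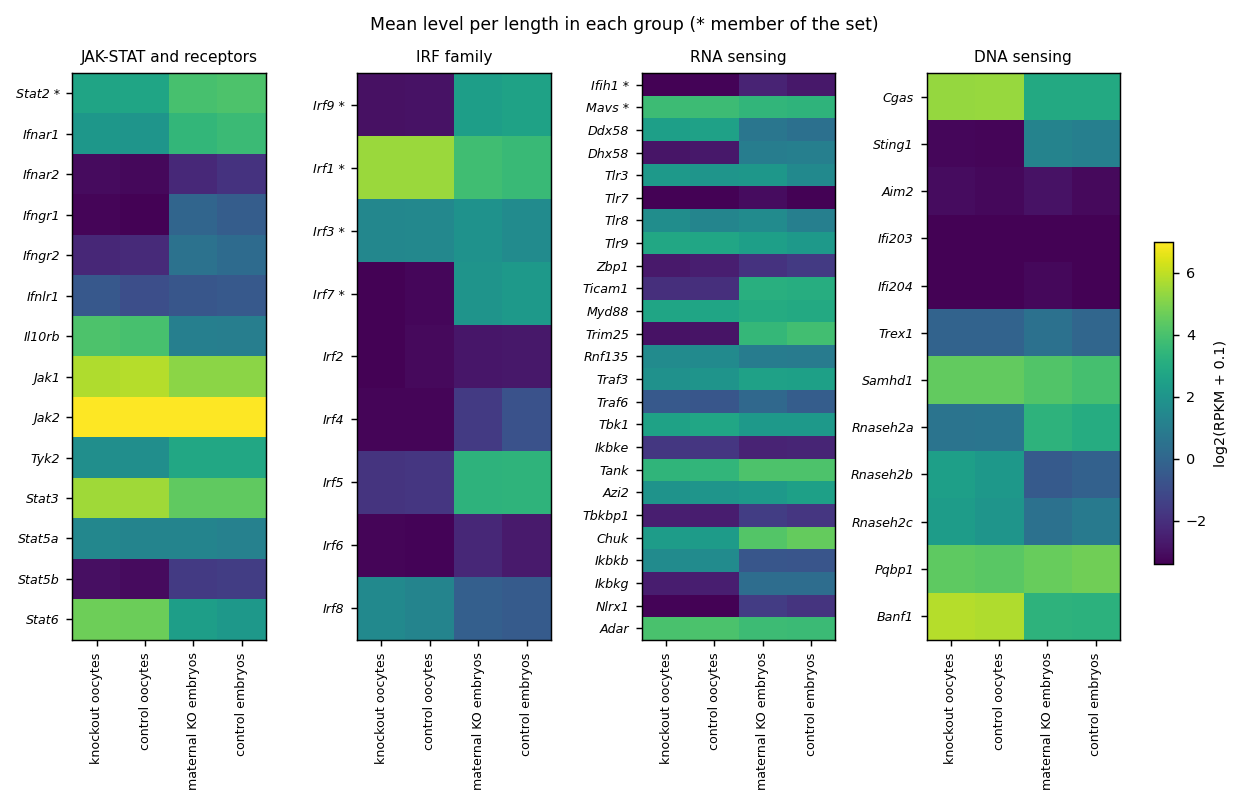
Mean level per length in each of the 4 groups, as log2(RPKM + 0.1), for most genes of the receptor and JAK-STAT list and for interferon regulatory factors, RNA sensing and DNA sensing genes, with members of the described set starred. Within a stage the 2 genotype columns look alike, while between stages Irf9, Irf7, Irf5, Trim25 and Sting1 go from dark to bright and Cgas and Irf1 the other way. The color scale is capped at 7, which Jak2 exceeds.

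For 8 members the gene with the most similar pattern was sought over the 4 group means, among 10615 genes with at least 5 CPM in some group, as the root mean square difference of log2(CPM + 0.5) after centring. Stat2 was nearest to Ybx1, which averaged 484 CPM in maternal-knockout embryos, 526 CPM in control embryos, 196 CPM in knockout oocytes and 199.8 CPM in control oocytes (difference 0.0043). Irf1 was nearest to Wdr53 (0.0045). Irf3 paired with Arl6ip6 (0.018), Irf7 with Tmem177 (0.016), Irf9 with Zbtb43 (0.026) and Ifih1 with Gad2 (0.035). Ifi35 was nearest to L1cam (0.043), and Cmpk2, whose nearest gene was Rln3, had the largest difference of the 8 (0.073). With 4 points a pattern, a close match is common by construction.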

How the data were processed

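Libraries were made from total RNA with the SoLo RNA-Seq kit, according to the labels' protocols. The authors deposited whole-number read counts per gene for 24421 Entrez identifiers in 11 libraries, with a gene width in bases. STAR 2.5.0a, SAMtools and the build GRCm38 (mm10) are named per the submitters' processing notes. Sources used here do not give the counting program or its use of strand. Of maternal-knockout embryos, replicate 1 is not analysed here.

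Symbols came from a RefSeq table of GRCm38.p6 (24387 matched). CPM is a count over the library's counted reads, and RPKM also divides by the deposited width. Tests used edgeR 4.0.16 in R 4.3.3 (filterByExpr with count minimum 10 and total minimum 15, TMM, robust quasi-likelihood F test), fitted on all genes with Benjamini-Hochberg adjustment and a threshold of 0.05. Each genotype comparison was fitted on its own stage, each stage comparison on its own genotype, and the difference of genotype effects on all 11 libraries. Alternatives were DESeq2 1.42.0, limma-voom (limma 3.58.1), other size factors and filters, a replicate block, 1 common fit and leaving out each library. Count tests were tested on simulated data. Intervals and floors cover counting error only, since reads without molecular identifiers are not independent molecules. Pools of separate females are the replicates, per the labels.

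The members, gene lists and tests were chosen with earlier results of these data known. Named were all 9 members, up to 4 called genes per list, direction and comparison with the smallest p, the 2 smallest p of a list with no call in a genotype comparison, and the gene most like each member. Single values of some genes that this rule or the lists would give are not reported here. Replicates differed by 4.86 to 34.3 in chi-square per degree of freedom, so none was taken as a duplicate.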

Additional observations from a re-analysis of the deposited data

How the results depend on the processing

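In every alternative, 0 members were called with genotype in oocytes, in embryos or in the difference between stages. By stage, leaving out 1 library gave 6 to 7 calls in knockouts and 4 to 6 in controls, against 7 and 6, and the other settings 6 to 7 and 5 to 6. Uncalled log2 changes near 0 turned their sign in some settings. With 1 library left out, the oocyte genotype change ranged from -0.028 to 0.043 for Irf1, -0.12 to 0.0062 for Irf3, -0.035 to 0.020 for Mavs, -0.35 to 0.12 for Irf5 and -0.0036 to 0.53 for Irf8. The embryo change ranged from -0.060 to 0.19 for Mavs, -0.087 to 0.48 for Rnaseh2a and -0.011 to 0.45 for Socs1. The difference between stages ranged from -0.24 to 2.67 for Irf7, -1.15 to 0.63 for Irf9 and -0.068 to 0.21 for Mavs, and that of Irf9 was -0.77 with limma-voom and -0.0054 with other size factors. The cause was not tested, and fitted values of genes with almost no oocyte reads depend on the prior count.

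Counts over all genes moved more. In oocytes 64 genes were higher and 19 lower. DESeq2 called 154 and 73, limma-voom 45 and 12, the fit without a filter 130 and 53, the fit of all libraries 18 and 4. Leaving out 1 library gave 16 to 117 higher and 4 to 40 lower. In embryos 4 were higher and 0 lower, with 9 and 1 by DESeq2, 2 and 0 by limma-voom, 30 and 2 without a filter, and 12 and 1 with all libraries in the fit. Leaving out 1 library gave 0 to 5 higher and 0 to 4 lower. For the difference between stages 2 were higher and 0 lower, and DESeq2 called 4 and 3.

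With replicate numbers as a block, 0 members were called with genotype, 6 by stage in knockouts, where Irf3 was not called (0.41), and 6 in controls. Mavs in embryos was at -0.046. Over all genes the block gave 32 lower in oocytes, and 1 higher and 1 lower in embryos. Same-numbered libraries correlated at -0.11 to 0.0873 in their deviations from the group means, so the numbers were not taken as pairs. Depth limits Ifih1 in embryos and all 4 members near 0 in oocytes.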
